A study of Corbicula fluminea with 24 samples.

Results

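Cytochrome P450 enzymes of families 2 and 3 are represented by 4 contigs in the digestive gland transcriptome of the Asian clam Corbicula fluminea: CP3AO, CP3A2, CP2U1.1.2 and CP2U1.2.2. They were taken by name from the deposited table of raw read counts, in which they are 4 of 58291 contigs, and all 4 passed the filter on low counts that kept 57593 contigs. The only other contig with a P450 name, by the pattern used, was CYP6. The clams had spent December to March in cages, at a reference site, below the outlet of a wastewater treatment plant (WWTP) or below an outlet of urban runoff. The gland of 8 clams per site was sequenced, with 24 libraries of 1 clam each. The labels give no age or strain. Each site was caged once, so effects of site and of cage cannot be told apart, and p-values measure the spread between clams. Within each site 4 libraries came from lane 3 of the sequencer and 4 from lane 4.

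P450s are heme enzymes of the endoplasmic reticulum or mitochondrion that insert oxygen into a substrate, using electrons passed on by a reductase or by cytochrome b5. Members of family 3 in vertebrates oxidise many drugs, pollutants and steroids, and CYP2U1 of mammals hydroxylates long-chain fatty acids. Oxidation by P450s is counted as phase I of the handling of foreign compounds, conjugation to glutathione or other groups as phase II and export as phase III. In bivalves the digestive gland is a main site of this metabolism. The table pairs no description, species or sequence with its names, so roles given here are those of the genes of that name in other animals. The endings of CP2U1.1.2 and CP2U1.2.2 mark a pair of contigs that share a name. How reads were divided between such copies is not known, which leaves the values of each uncertain.

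Library totals ranged from 40.4 M to 97.7 M counts, from 60.1 M to 85.1 M at the reference site, 40.4 M to 78.8 M at the WWTP site and 46.1 M to 97.7 M at the runoff site. The 4 P450 contigs held between 372 and 24261 counts in each library. Counting error was small beside the spread between clams for CP3AO, CP3A2 and CP2U1.1.2. For CP2U1.2.2, which held the lowest count and varied least between clams, it was a larger part of the spread. Levels are given as CPM, read counts relative to the library size after TMM scaling. CPM is not corrected for contig length, so levels are compared between clams and not between genes. Of 18 digestive hydrolase contigs, lysozymes among them, all were detected, with a summed level of 363 to 4780 CPM. Muscle contigs (15, summed level 315 to 13600 CPM), vitellogenin contigs (2, 133 to 15800 CPM) and tubulin and dynein contigs (26, 4440 to 12500 CPM) were detected too, and none of these lists held a contig at 0 in every library. Detection alone therefore cannot check the label of digestive gland. The median summed level in reference, WWTP and runoff clams was 2320, 3060 and 1830 CPM for the digestive list, 1080, 964 and 917 CPM for the muscle list, 5010, 4080 and 2830 CPM for the vitellogenins and 7450, 7250 and 7540 CPM for the tubulins and dynein. No contig of these lists passed the test described next in any comparison (edgeR), and their part in the P450 levels was not tested. As these are bulk libraries, fewer cells of a type and less RNA per cell cannot be told apart.

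No P450 contig passed the threshold between sites. The 24 libraries were fitted together in edgeR's quasi-likelihood test, with Benjamini-Hochberg adjustment over all 57593 contigs and a threshold of 0.05. In WWTP against reference clams 0 of 4 P450 contigs were called, where 1.47% of all contigs were. In runoff against reference clams it was 0 of 4 beside 0.116%, and in WWTP against runoff clams 0 of 4 beside 1.06%. DESeq2 and limma-voom called 0 of the 4 in each comparison as well. At an unadjusted p under 0.05 in edgeR, both CP2U1 contigs stood out in WWTP against reference clams (2 of 4, beside 14.5% of all contigs) and in runoff against reference clams (2 of 4, beside 9.95%). In each case CP2U1.1.2 was the higher (1 of 4, beside 7.77% of contigs in WWTP and 5.1% in runoff clams) and CP2U1.2.2 the lower (1 of 4, beside 6.77% and 4.86%). In WWTP against runoff clams 0 of 4 did so, beside 13.5% of contigs (6.87% higher and 6.59% lower). For no member did the 8 values of a site lie apart from those of another, which was the case for 0.352%, 0.177% and 0.309% of contigs in the same order of comparisons. The comparisons with the reference site share its 8 libraries and are not independent.

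**Figure D1:**
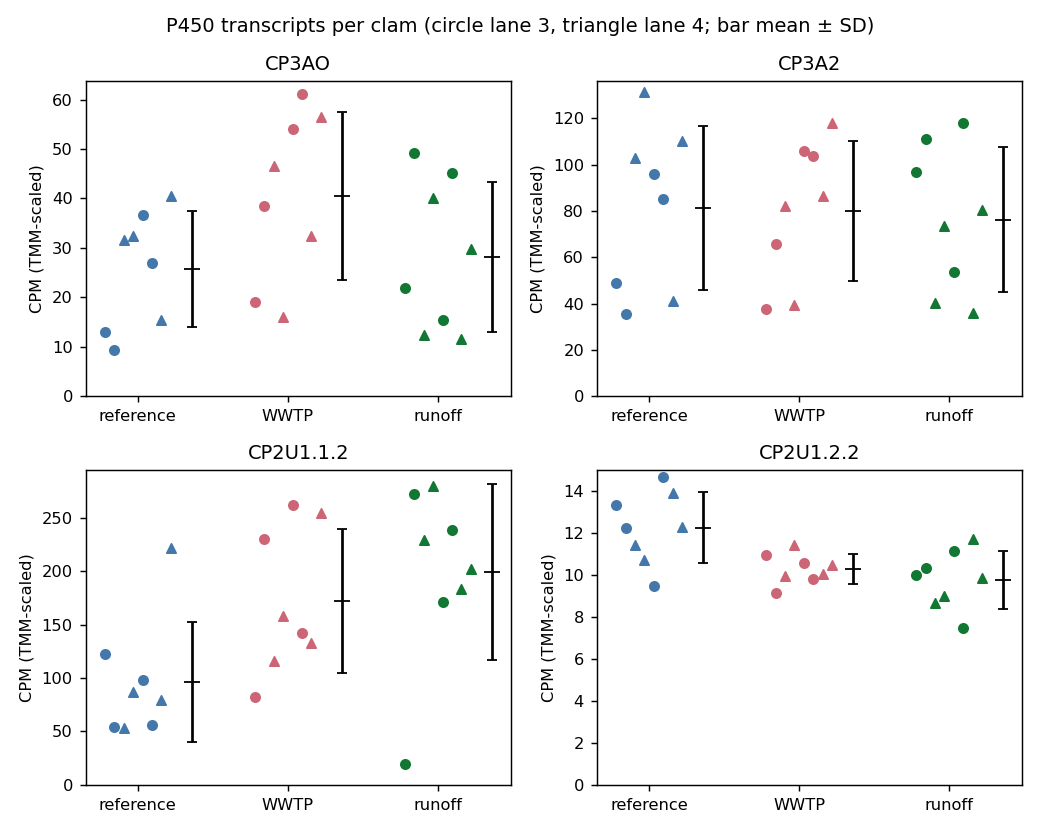
Level of each P450 contig in every clam, in TMM-scaled CPM on a linear axis from 0, with circles for lane 3, triangles for lane 4 and bars for the mean ± SD of 8 clams. CP2U1.1.2 lay at 171 CPM or above in 7 runoff clams and at 19.8 CPM in the remaining one, while the sites overlap for CP3AO and CP3A2.

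CP3AO carries a name of P450 subfamily 3A, the group that oxidises a wide range of foreign compounds and steroids in mammals. In reference clams it ranged from 9.34 to 40.4 CPM with a median of 29.3 CPM. In WWTP clams it ranged from 16 to 61.2 CPM with a median of 42.5 CPM, and in runoff clams from 11.6 to 49.2 CPM with a median of 25.8 CPM. The ranges overlap, and 6 of 8 WWTP clams lay above the reference median. Means were 40.5 ± 17.1 CPM (SD, n = 8) at the WWTP site and 25.7 ± 11.7 CPM at the reference site, a ratio of 1.57 with a 95% interval of 0.933 to 2.64 (edgeR log2 fold change 0.65 with an SE of 0.362, adjusted p = 0.433). Runoff clams stood at 28.2 ± 15.1 CPM, 1.1 times the reference value, with an interval of 0.655 to 1.84 (log2 fold change 0.13, SE 0.361, edgeR adjusted p = 0.997). With the first principal component described below as a term, the WWTP difference was 0.41 (edgeR adjusted p = 0.111). These intervals, like those below, are not adjusted for the number of contigs.

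CP3A2, the other contig with a 3A name, differed less between sites. It ranged from 35.7 to 131 CPM in reference clams (median 90.6), from 37.7 to 118 CPM in WWTP clams (median 84.2) and from 36 to 118 CPM in runoff clams (median 77.0). The lowest and highest clams were nearly alike at the 3 sites. The log2 fold change was -0.03 in WWTP against reference clams (SE 0.312, edgeR adjusted p = 0.986), and the interval of 0.629 to 1.54 times leaves room for a change of either sign. In runoff against reference clams it was -0.09 (SE 0.312, interval 0.599 to 1.46 times, edgeR adjusted p = 1). Its sign is not fixed by these data, since it turned within lane 3, where the log2 fold change was 0.23 in WWTP and 0.52 in runoff clams against reference clams.

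CP2U1.1.2, named for an enzyme that hydroxylates fatty acids in mammals, had the widest range of the 4, from 19.8 to 280 CPM. Reference clams lay between 52.9 and 222 CPM with a median of 83.2 CPM, and 7 of them lay at or below 123 CPM. WWTP clams lay between 82.4 and 261 CPM with a median of 150 CPM. Runoff clams lay between 19.8 and 280 CPM with a median of 215 CPM, and all but individual 49, at 19.8 CPM, lay at 171 CPM or above. Thus 7 of 8 clams at each effluent site lay above the reference median, and the ranges of the 3 sites overlap. Runoff and reference clams overlap through reference individual 31, at 222 CPM, and runoff individual 49, whereas WWTP and reference clams overlap without these as well.

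Means of CP2U1.1.2 were 96.5 ± 56.1 CPM (SD, n = 8) at the reference site, 172 ± 67.5 CPM at the WWTP site and 199 ± 82.4 CPM at the runoff site. WWTP clams stood at 1.78 times the reference level, with an interval of 1.04 to 3.10 (log2 fold change 0.84, SE 0.382), and missed the threshold (edgeR adjusted p = 0.305, two-sided exact permutation p = 0.0183 for this contig alone). Without reference individual 31 the WWTP difference was 1.11 (edgeR adjusted p = 0.165). Runoff clams stood at 2.07 times the reference level, with an interval of 1.19 to 3.58 (log2 fold change 1.05, SE 0.384), and missed it too (edgeR adjusted p = 0.306, exact permutation p = 0.0884). Without runoff individual 49 the runoff difference was 1.22 (edgeR adjusted p = 0.0691), and without reference individual 31 it was 1.34 (edgeR adjusted p = 0.219). The order of the site means was reference, WWTP, runoff, and the WWTP and runoff sites did not differ beyond their spread (log2 fold change -0.21, SE 0.38, edgeR adjusted p = 0.892). Without runoff individual 49 their difference was -0.39 (edgeR adjusted p = 0.689).

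CP2U1.2.2, the other contig of that name, was the steadiest of the 4 between clams. It ranged from 9.50 to 14.7 CPM in reference clams (median 12.3), from 9.16 to 11.4 CPM in WWTP clams (median 10.3) and from 7.49 to 11.7 CPM in runoff clams (median 9.92). All 8 WWTP and all 8 runoff clams lay below the reference median, and the ranges still overlap. Means were 12.3 ± 1.70 CPM (SD, n = 8) at the reference site, 10.3 ± 0.710 CPM at the WWTP site and 9.77 ± 1.37 CPM at the runoff site. WWTP clams stood at 0.841 times the reference level (interval 0.732 to 0.966, log2 fold change -0.25, SE 0.0952, edgeR adjusted p = 0.195, exact permutation p = 0.0107). Runoff clams stood at 0.797 times (interval 0.697 to 0.914, log2 fold change -0.33, SE 0.0952, edgeR adjusted p = 0.156, exact permutation p = 0.0073). The exact p-values are two-sided and not adjusted. With the first principal component described below as a term in the fit, the runoff value came to an edgeR adjusted p of 0.0501, and in DESeq2 to 0.0535. With library totals in place of TMM scaling, the WWTP value was -0.43 (edgeR adjusted p = 0.18); under that scaling the median over all contigs went from 0.00645 to -0.16. The WWTP and runoff sites differed by 0.08 (SE 0.0952, edgeR adjusted p = 0.827).

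**Figure D2:**
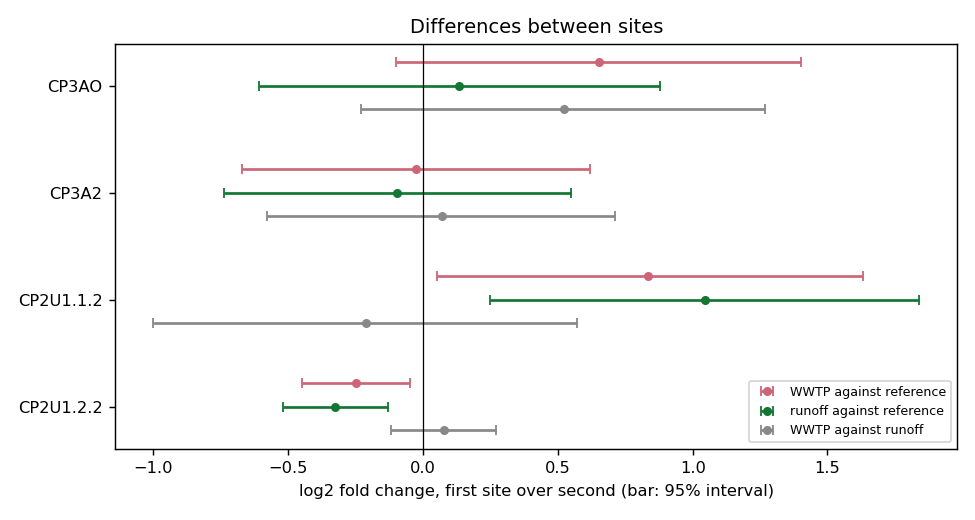
Log2 fold change of each P450 contig in the 3 comparisons, first site over second, with 95% intervals that are not adjusted for the number of contigs. The intervals of the CP2U1 contigs against the reference site lie on opposite sides of 0, and those of CP3AO and CP3A2 include 0 in all 3 comparisons.

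The spread between clams of 1 site differed between the members. The SD of log2 CPM within sites was 0.79 for CP3AO, 0.67 for CP3A2, 0.90 for CP2U1.1.2 and 0.18 for CP2U1.2.2, beside a median of 0.34 over the 38627 contigs with a mean of at least 2 CPM. Of those contigs, 84.2% had a smaller SD than CP3AO, 80.2% than CP3A2 and 86.7% than CP2U1.1.2, but 9.52% than CP2U1.2.2. The highest clam held 6.55 times the lowest for CP3AO, 3.68 times for CP3A2 and 1.96 times for CP2U1.2.2. For CP2U1.1.2 it was 14.2 times, and 5.30 times without runoff individual 49.

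The 3A contigs followed the main axis of variation among the clams. The first principal component of log2 CPM, computed without the 4 members, held 58.8% of the variance and is drawn so that GUN, a cellulose-digesting endoglucanase, falls along it. The clams lay in separate sets on it, 16 between -158 and -27.7 and 8 between 56.2 and 252. The first set held 5 reference, 6 WWTP and 5 runoff clams and the second 3, 2 and 3, and no difference in position between sites was detected (two-sided exact permutation p = 0.438, 0.954 and 0.44 in the order of comparisons above, n = 8 per site). CP3A2 ranged from 65.9 to 131 CPM in the first set and from 35.7 to 53.5 CPM in the second. CP3AO ranged from 21.9 to 61.2 CPM in the first and from 9.34 to 19.0 CPM in the second. Neither contig overlapped between the sets, which is a description, as the sets were read from the data. The share of all contigs that separate in this way is not given here, so how common it is stays unknown.

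Within the 16 clams CP3A2 still fell along the component, with Pearson r = -0.762 (permutation p = 8e-04, adjusted p = 0.0048 over 6 relations) and Spearman rho = -0.756 (permutation p = 0.00113, adjusted p = 0.00678). Without the 2 clams farthest from the median r was -0.686. CP3AO gave r = -0.65 (permutation p = 0.00703, adjusted p = 0.0211) and rho = -0.65 (permutation p = 0.0077, adjusted p = 0.0231), and r = -0.655 without the 2 farthest. Within the 8 other clams no relation with the component was detectable (CP3A2 r = 0.498, exact permutation p = 0.191; CP3AO r = -0.429, exact permutation p = 0.289). CP3AO and CP3A2 themselves had r = 0.272 within the 16 (rho = 0.394, permutation p of 0.308 and 0.13) and r = 0.287 within the 8 (rho = 0.333, exact permutation p of 0.478 and 0.428), so that within a set they were not shown to vary together. These values pool the sites, between which the ratio of the pair differed, as given below.

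**Figure D3:**
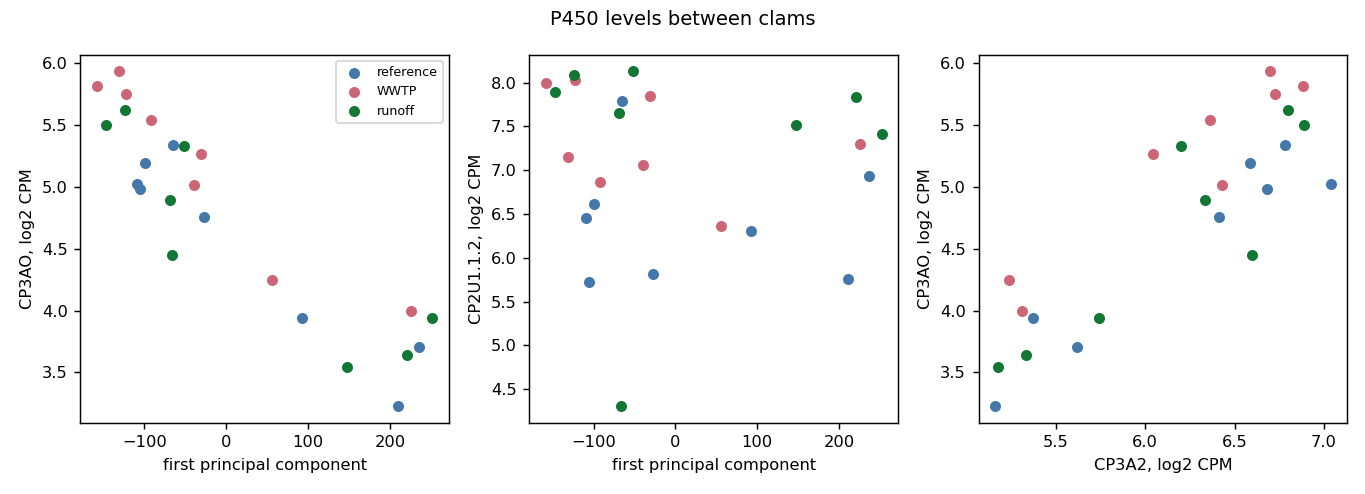
Log2 CPM of CP3AO and of CP2U1.1.2 against position on the first principal component, and of CP3AO against CP3A2, with 1 point per clam coloured by site. CP3AO is high in the 16 clams on the left of the component and low in the 8 on the right, and CP2U1.1.2 shows no such split. All WWTP clams but individual 47 lie above reference clams of the same CP3A2 level.

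No relation of the CP2U1 contigs with that component passed once adjusted. Over 24 clams CP2U1.1.2 had r = -0.0766 with it (rho = -0.255, permutation p of 0.728 and 0.228) and CP2U1.2.2 had r = 0.385 (rho = 0.429, permutation p of 0.0647 and 0.0384, adjusted p = 0.129 and 0.0706 over 8 relations). Within sites CP2U1.2.2 had r = 0.521 with the component in reference, 0.561 in WWTP and 0.43 in runoff clams. Within lane 3 it was 0.592 and within lane 4 it was 0.0795. The CP2U1 pair had r = -0.402 with each other (rho = -0.468, permutation p of 0.0514 and 0.022, adjusted p = 0.103 and 0.0425 over 6 pairs). The pairs of CP3AO with CP2U1.1.2 (rho = 0.471, permutation p = 0.0206) and with CP2U1.2.2 (rho = -0.45, permutation p = 0.0283) had the same adjusted p for rho of 0.0425, over clams that CP3AO splits into the sets described above, and their adjusted p for r was 0.138 and 0.0975. For the CP2U1 pair, without the 2 clams farthest from the median of CP2U1.1.2, runoff individual 49 and reference individual 22, it was r = -0.585. Within sites it was weaker, at r = -0.12 in reference, -0.224 in WWTP and -0.202 in runoff clams, and with scaling by library totals alone it was -0.0853. CP3A2 was also related to the library total (r = 0.551, rho = 0.683, permutation p of 0.00496 and 0.00029, adjusted p = 0.0132 and 0.000773, and r = 0.579 without the 2 farthest clams), and the part of depth in its values was not tested.

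The ratio of CP3AO to CP3A2 counts within a clam was examined after the values had been seen. Library scaling and contig length cancel when such a ratio is compared between clams. In reference clams it ranged from 0.247 to 0.381 with a median of 0.313, in WWTP clams from 0.375 to 0.588 with a median of 0.506 and in runoff clams from 0.226 to 0.547 with a median of 0.345. Only WWTP individual 47, at 0.375, lay within the range of the reference clams. The mean log2 ratio was -1.01 ± 0.242 (SD, n = 8) in WWTP, -1.69 ± 0.249 in reference and -1.52 ± 0.393 in runoff clams.

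CP3AO was thus higher relative to CP3A2 in WWTP than in reference clams, by a log2 difference of 0.67 or 1.59 times (two-sided exact permutation p = 0.000311, adjusted p = 0.00187 over 6 tests of 2 ratios in 3 comparisons). It was also higher in WWTP than in runoff clams, by 0.50 (exact permutation p = 0.00948, adjusted p = 0.019). In runoff against reference clams the difference was 0.17 (exact permutation p = 0.325, adjusted p = 0.39). Within lane 3 the WWTP clams differed from reference clams by 0.85 and within lane 4 by 0.50, each with an exact permutation p of 0.0286, the smallest that 4 clams against 4 allow. Against runoff clams the lane values were 0.75 (exact permutation p = 0.0286) and 0.26 (exact permutation p = 0.257). After the first principal component was removed from the ratio, the WWTP differences were 0.61 and 0.43 (exact permutation p = 0.000311 and 0.00715). With any 1 of the 24 libraries left out, the adjusted exact permutation p stayed at or under 0.00466 against reference clams and at or under 0.037 against runoff clams. A ratio shows unequal levels of the pair and not which contig differed. The adjusted p-values cover the 6 tests and not the choice of the 2 ratios after the values were seen. How often other pairs of contigs differ as much was not examined.

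The ratio of CP2U1.1.2 to CP2U1.2.2 counts, examined in the same way, ranged from 3.85 to 18.1 in reference clams (median 6.91), from 7.51 to 25.1 in WWTP clams (median 14.1) and from 1.98 to 31.8 in runoff clams (median 23.5). The mean log2 ratio was 3.96 ± 0.622 (SD, n = 8) in WWTP and 2.82 ± 0.759 in reference clams, a difference of 1.14 or 2.21 times (exact permutation p = 0.0073, adjusted p = 0.019), which was 1.34 without reference individual 31 (adjusted exact permutation p = 0.00466). In runoff clams it was 4.08 ± 1.32, a difference of 1.26 from reference clams that missed the threshold once adjusted (exact permutation p = 0.0365, adjusted p = 0.0547). Without runoff individual 49 that difference was 1.70 and its adjusted exact permutation p was 0.00186, and without reference individual 31 they were 1.45 and 0.0305. These were the only 2 of 24 fits with 1 library left out in which the runoff difference passed. Its highest adjusted exact permutation p was 0.1, without runoff individual 60. For the WWTP difference from reference clams that p stayed at or under 0.0367 with any 1 library left out. WWTP and runoff clams differed by -0.12 (exact permutation p = 0.864), and by -0.56 without runoff individual 49 (adjusted exact permutation p = 0.083). Within lane 3 the WWTP difference from reference clams was 1.35 and within lane 4 it was 0.94 (exact permutation p = 0.0857 and 0.114).

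**Figure D4:**
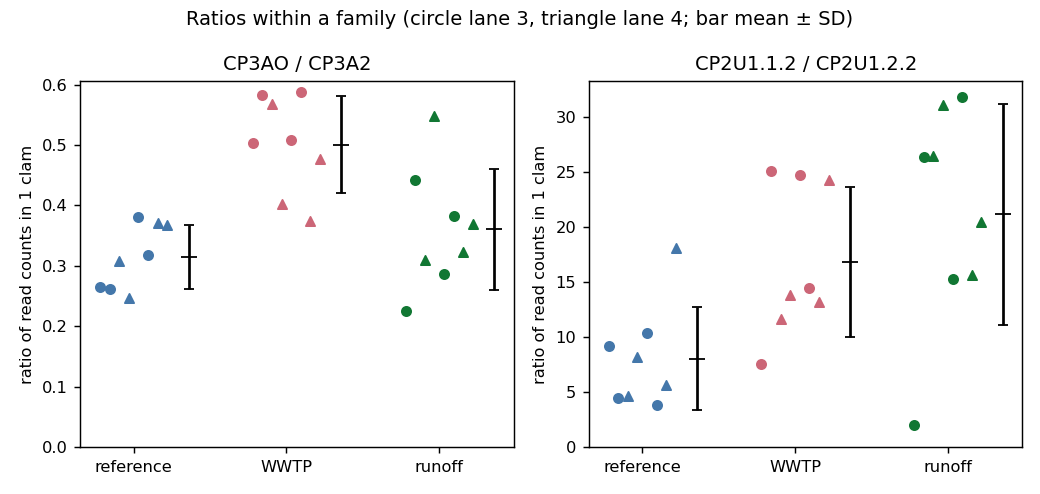
Ratio of read counts of the 3A pair and of the CP2U1 pair in each clam on linear axes from 0, with circles for lane 3, triangles for lane 4 and bars for the mean ± SD of 8 clams. For the 3A pair 7 of 8 WWTP clams lie above the highest reference clam at 0.381, and for the CP2U1 pair runoff individual 49 lies at 1.98, below all other clams.

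The transcripts most alike to each P450 contig were sought among 1263 contigs with a gene symbol and a mean of at least 2 CPM, by Pearson r of log2 CPM over the 24 clams. These values describe libraries that share depth and the first principal component. For CP3AO they were 3BHS1, named for a steroid dehydrogenase (r = 0.977), AMACR, a racemase of branched fatty acids (0.972), TWF1, an actin-binding twinfilin (0.965), the small GTPase rac3 (0.952) and RDH7.1.2, a retinol dehydrogenase (0.95). All 5 fell along the component, with r between -0.95 and -0.87. With each site centred on its own mean, 3BHS1 (0.975), TWF1 (0.971) and AMACR (0.97) were again the first 3, followed by SAMH1.3.5 (0.955) and RDH7.1.2 (0.954). 3BHS1 stood at 10.1 ± 5.22 CPM (SD, n = 8) in WWTP and 5.95 ± 4.17 CPM in reference clams (log2 fold change 0.76, SE 0.531, edgeR adjusted p = 0.577).

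CP3A2 had other neighbours, namely TRI33.5.7 and TRIM2, named for ubiquitin ligases (r = 0.967 and 0.961), the ribonuclease RNOY.1.2 (0.949), the proprotein convertase PCSK4.9.15 (0.948) and the lectin receptor ASGR1.3.3 (0.948). With sites centred, they were TRI33.5.7 (0.968), PCSK4.14.15 (0.967), the ferritin FRIS (0.964), TRIM2 (0.963) and PRRT1 (0.96). TRI33.5.7 stood at 13.5 ± 5.59 CPM (SD, n = 8) in WWTP and 13.7 ± 7.54 CPM in reference clams (log2 fold change -0.02, SE 0.406, edgeR adjusted p = 0.994).

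For CP2U1.1.2 the likeness to named transcripts was lower. SLC35B4, a transporter of nucleotide sugars, came first (r = 0.734), followed by WDR59.2.2 (0.683), the lysozyme LYS1 (0.651), SVEP1.13.13 (0.637) and PAR14.2.2 (0.626), and with sites centred by SLC35B4 (0.748), RAC1.3.3 (0.723), OGRL1.2.6 (0.689), LYS1 (0.689) and the caspase DRICE (0.649). Among all contigs, contig_08155 (r = 0.92) and contig_09216 (r = 0.886), singled out after their values were seen, were closer. Without runoff individual 49 their r was 0.895 and 0.889. In that clam contig_08155 stood at 3.34 CPM, below the 5.40 CPM of the next lowest clam, and contig_09216 at 10.8 CPM, below the 19.2 CPM of the next lowest runoff clam. The lowest reference clam also stood at 10.8 CPM for contig_09216. For CP2U1.2.2 the closest were ZN254.3.3, a zinc finger protein (r = 0.861), the dolichol kinase DOLK (0.769), higd2a (0.738), TAZ (0.736) and ZN227 (0.698). With sites centred they were ZN254.3.3 (0.779), DOLK (0.745), cunh11orf31 (0.732), the microsomal glutathione transferase MGST1 (0.714) and BRE4 (0.701).

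Other genes of the pathway were taken by name patterns, which matched 26 contigs besides the 4 members. In WWTP against reference clams 1 of 26 rose and none fell, where 1.47% of all contigs were called. The median log2 fold change was 0.36 beside 0.00645 over all contigs tested. In runoff against reference clams 0 of 26 passed (edgeR), where 0.116% of all contigs did, with a median of 0.01 beside 0.0117. In WWTP against runoff clams 1 rose and none fell, where 1.06% of all contigs were called, with a median of 0.21 beside -0.00655. The contig that rose was mgst1.1.2 in both cases, a membrane-bound enzyme of the microsomes that joins glutathione to reactive or greasy molecules. It stood at 31.1 ± 7.57 CPM (SD, n = 8) in WWTP, 20.8 ± 3.03 CPM in reference and 20.5 ± 3.14 CPM in runoff clams, and the difference of WWTP from runoff clams was 0.60 (SE 0.14, edgeR adjusted p = 0.0379), beside 0.58 from reference clams (SE 0.14, edgeR adjusted p = 0.0358). The call was lost in 4 of 12 other fits in each comparison, with the direction kept. Against reference clams these were library totals as scaling (0.40, edgeR adjusted p = 0.0856), a fit of the 2 sites alone (0.58, edgeR adjusted p = 0.0729), lane 3 alone (0.63, edgeR adjusted p = 0.719) and lane 4 alone (0.54, edgeR adjusted p = 0.311). Against runoff clams the same fits gave 0.39, 0.59, 0.47 and 0.71 (edgeR adjusted p = 0.0718, 0.0965, 0.663 and 0.588). With 1 of 24 libraries left out it was kept in 13 fits against runoff and 14 against reference clams, and the highest edgeR adjusted p was 0.0923 and 0.0931. The other contigs of that name, mgst1.2.2 and MGST1, did not pass and lay on opposite sides of 0. In WWTP against reference clams they stood at 0.85 and -0.25 (edgeR adjusted p = 0.609 and 0.623). In WWTP against runoff clams they stood at 0.66 and -0.19 (edgeR adjusted p = 0.747 and 0.763).

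Among genes that act beside P450s, CYP6, named for an insect P450 family of detoxification, stood at 366 ± 163 CPM (SD, n = 8) in reference, 328 ± 242 CPM in WWTP and 339 ± 150 CPM in runoff clams (log2 fold change -0.16 and -0.11 against the reference site, edgeR adjusted p = 0.92 and 1). The electron donor cytochrome b5 was represented by cyb5b, at 0.22 and 0.47 (edgeR adjusted p = 0.923 and 0.907). No contig matched the name patterns for P450 reductase or for heme synthesis. Of receptors that control P450 genes in vertebrates, RXR, the partner of many nuclear receptors, stood at 2.76 CPM in runoff and 4.19 CPM in reference clams (log2 fold change -0.60, SE 0.161, edgeR adjusted p = 0.12). VDR stood at -0.19 and -0.13 in WWTP and runoff clams (edgeR adjusted p = 0.854 and 0.986).

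Of 14 other phase I contigs 0 passed in any comparison (edgeR), and 13 of 14 had a positive log2 fold change in WWTP against reference clams (median 0.44), beside 51% of all contigs. With library totals as scaling it was 10 of 14 (median 0.26), beside 27.4%. In the same comparison, with TMM scaling, 15 of 18 digestive contigs (median 0.22), 12 of 15 muscle contigs (median 0.41) and 16 of 26 tubulin and dynein contigs (median 0.14) were positive as well, and their part in the phase I values was not tested. The values of largest size were those of ADHX.1.2 and ADHX.2.2, named for an alcohol dehydrogenase that also oxidises a glutathione adduct of formaldehyde. ADHX.2.2 ranged from 3.06 to 41.8 CPM in reference clams (median 14.7), from 25.9 to 174 CPM in WWTP clams (median 51.9) and from 21.2 to 292 CPM in runoff clams (median 98.1). All 8 clams of each effluent site lay above the reference median, and the log2 fold changes were 2.04 (SE 0.593, edgeR adjusted p = 0.0824) and 2.54 (SE 0.604, edgeR adjusted p = 0.0839). For ADHX.1.2 they were 1.90 and 2.48 (edgeR adjusted p = 0.106 and 0.0921). The reductases DHRS4 and dhrs4.L stood at 0.80 and 0.84 (SE 0.312 and 0.384, edgeR adjusted p = 0.207 and 0.304), the monoamine oxidase MAOB at 0.33 (edgeR adjusted p = 0.323) and the flavin monooxygenase FMO2 at 0.41 (edgeR adjusted p = 0.355). In runoff clams DHRS4, dhrs4.L, MAOB and FMO2 stood at 0.13, -0.0033, -0.22 and 0.28, and 9 of 14 were positive (median 0.03, beside 52.1% of all contigs). The aldehyde dehydrogenase aldh7a1 stood at 46.1 ± 3.51 CPM (SD, n = 8) in WWTP and 37.3 ± 2.97 CPM in runoff clams (log2 fold change 0.31, SE 0.0786, edgeR adjusted p = 0.0568). Of 6 phase II contigs 5 were positive in WWTP against reference clams (median 0.45), and the ABC transporters ABCA2 and ABCB9, which in mammals act in lysosomes and are not known as exporters of foreign compounds, stood at -0.11 and -0.05 (edgeR adjusted p = 0.881 and 0.892).

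**Figure D5:**
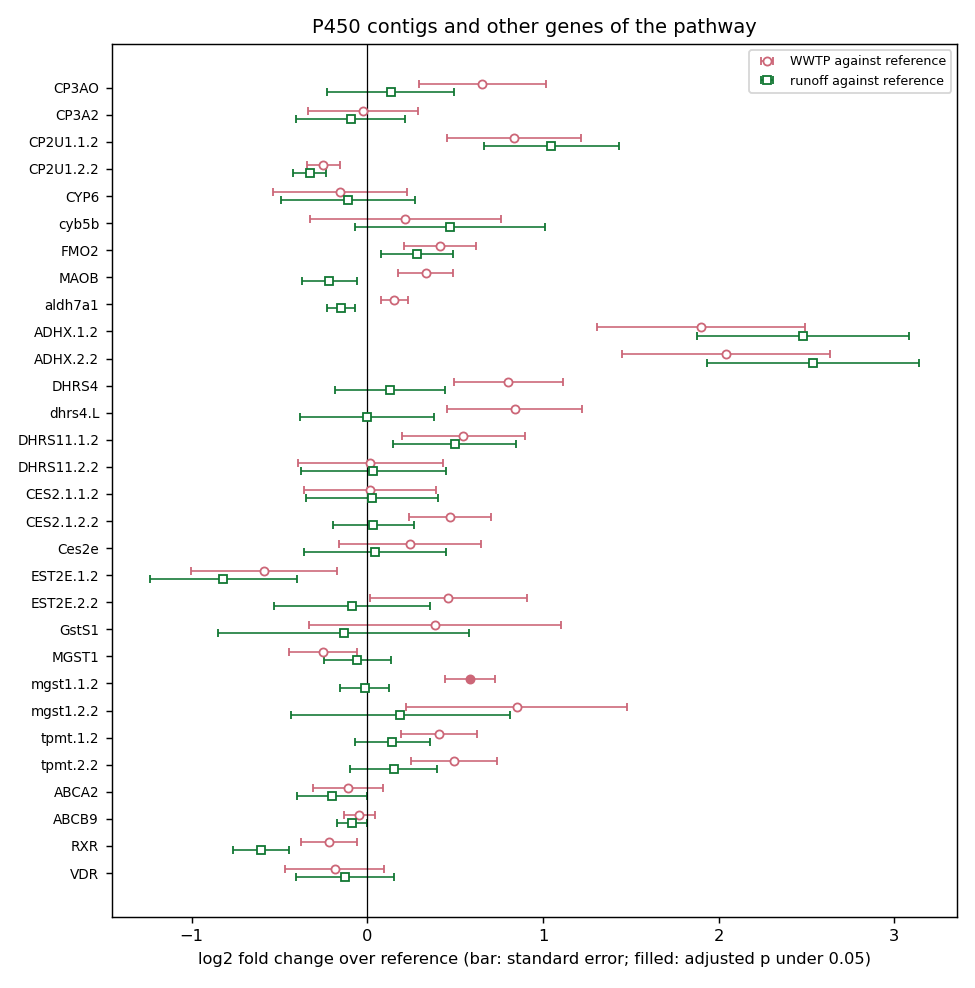
Log2 fold change over the reference site for the 4 P450 contigs, listed first, and 26 other contigs of the pathway, with circles for WWTP and squares for runoff clams, bars for the standard error and filled symbols for an edgeR adjusted p under 0.05. The one filled symbol is mgst1.1.2 in WWTP clams, and CP2U1.1.2 and CP2U1.2.2 lie on opposite sides of 0 at both effluent sites.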

How the data were processed

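RNA-seq libraries of the digestive gland of 24 clams were analysed, 8 per site. Total RNA was extracted by the SV system of Promega and made into TruSeq v2 libraries, per the labels' protocols. The authors deposited raw read counts per assembled contig, which are whole numbers with totals that differ between libraries (median 61.1 M). The submitters' processing notes list BWA 0.7.12 and SAMtools 1.1. How contigs were assembled and named, how reads were counted and whether rows were filtered is not given in the sources used here. Every column was used.

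Sites came from the labels and lanes from the column names. Contigs were filtered with filterByExpr (minimum count 10), scaled with TMM factors and fitted over all 24 libraries with edgeR 4.0.16 (robust quasi-likelihood, site only) in R 4.3.3. Standard errors are those of the log2 fold change. The biological coefficient of variation was 45.8%. Log2 CPM for correlations and permutation tests used a prior count of 2. Correlations were tested with 1e+05 permutations, and differences of site means in 1 value with all 12870 splits. The smallest p that the correlation permutations can give is 1e-05. The test was checked on simulated counts, where smaller changes were found less often. A contig that was not called is therefore not shown to be unchanged. The highest correlation between 2 libraries was 0.9767, so none was a copy of another. Alternatives were other scalings and filters, lane or the first principal component as a term, single lanes, 2 sites only, DESeq2 1.42.0, limma-voom (limma 3.58.1), and each library left out.

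The members, the name patterns and the rule for naming genes were chosen with earlier results of these data known. The rule names the 4 members, pathway genes past the threshold up to 4 per list, lists of 4 or fewer in full, and the 5 symbols most alike to each member. Pathway contigs named with values below the threshold, outside lists of 4 or fewer, were chosen after their values were seen. Of the pattern matches, 2 tpmt contigs and a locus tag were left out of the muscle list and DAZP1 out of the germline list because their names mean other genes. Figures were drawn with matplotlib 3.10.9.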

Additional observations from a re-analysis of the deposited data

Results flagged for a closer look

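In groups of 8 clams, a clam was singled out where its gap to the nearest other clam, divided by the range of the group, exceeded Dixon's 95% critical value. Of 18 groups examined, 3 held such a clam. The rate of about 1 in 20 groups that chance gives holds for independent groups of normal values. These groups are not independent, as each ratio is made from contigs that were examined as well. All 3 groups so marked concern CP2U1.1.2. It stood at 19.8 CPM in runoff individual 49, next to 171 CPM in the nearest runoff clam, and the log2 ratio of CP2U1.1.2 to CP2U1.2.2 in that clam was 0.983, next to 3.94. CP2U1.1.2 stood at 222 CPM in reference individual 31, next to 123 CPM in the nearest reference clam. Differences between sites without each of these clams stand beside the comparisons in which that clam's site takes part.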

How the results depend on the processing

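Over 36 other fits per comparison, the P450 contigs called numbered 0 in all 3 comparisons, with the lowest adjusted p at 0.0501 (CP2U1.2.2, runoff against reference, component as a term). CP2U1.1.2 and CP2U1.2.2 kept their sign against the reference site in all 36. The unadjusted exact permutation test passed 2 contigs in WWTP against reference clams (CP2U1.1.2 at 0.90 and CP2U1.2.2 at -0.24) and 1 in runoff against reference clams (CP2U1.2.2 at -0.33); it applies no adjustment over contigs.

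Signs turned for small log2 differences. Against reference clams, CP3A2 was 0.23 (WWTP) and 0.52 (runoff) within lane 3 and 0.0059 (WWTP) in log2 CPM means, and CP3AO in runoff clams was -0.34 within lane 4 and -0.0068 in limma-voom. In WWTP against runoff clams, CP3A2 was -0.12 with library totals (a scaling that moved the median of all contigs there from -0.00655 to -0.201), -0.16 with the component as a term and -0.29 within lane 3, CP2U1.2.2 was -0.12 with library totals, CP2U1.1.2 was 0.019 within lane 3 and the log2 CP2U1 ratio 0.35 within lane 3. With 1 clam left out, CP3A2 ranged from -0.14 to 0.11, -0.21 to 0.038 and -0.045 to 0.19 in the order of comparisons, CP3AO from -0.030 to 0.25 in runoff against reference clams, and the log2 CP2U1 ratio from 1.13 to 1.70 in runoff against reference and from -0.56 to 0.033 in WWTP against runoff clams. The cause was not tested.

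Within single lanes the ratio differences that passed over all clams kept their sign but no longer passed once adjusted over 6 tests, with 4 clams per site (3A ratio 0.85 and 0.50 against reference and 0.75 and 0.26 against runoff clams; CP2U1 ratio 1.35 and 0.94 in WWTP against reference clams).

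Over all 24 clams the 3A pair had r = 0.867 (permutation p = 1e-05), and r = 0.284 given the component. Within sites r was 0.949 in reference, 0.947 in WWTP and 0.892 in runoff clams, and it was 0.926 with sites centred. Each site has clams in both sets, so these values span the gap between the 2 sets. The values within a set, given above, pool the sites instead, and the part of the gap in r was not tested. Given the component, CP3AO and CP2U1.1.2 had r = 0.689 (permutation p = 2e-04, adjusted p = 0.0012, and 0.35 without it) and CP3A2 and CP2U1.2.2 had 0.0459 (-0.324 without it). The value of 0.689 includes runoff individual 49 and pools the sites. No value given the component without that clam, or with sites centred, is given here. With library totals alone, r was -0.711 for CP3AO and CP2U1.2.2, -0.559 for CP3A2 and CP2U1.2.2 and -0.0106 for CP3A2 and CP2U1.1.2, which was -0.123 within lane 4. The CP2U1 pair had r = -0.585 without the 2 farthest clams and -0.573 without runoff individual 49, chosen after seeing the data, as were both ratios. No paired analysis was possible because the numbers of the clams come from the sample titles and tie no clams of different sites together.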
